A study of Mus musculus with 8 samples.

Results

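Mouse chromosome 13 was described in replication timing profiles of embryonic stem cells from which YY1 had been depleted, and of their controls. It was chosen by measured values: in earlier results from the same profiles its mean difference between dTAG and control stood apart from that of the other chromosomes in replicate number 2. The dTAG minus control values below are therefore a description and carry no test. All positions of the chromosome in the deposited table were taken, and scores were averaged in windows of 50 kb. This gave 2346 windows of 51425 in the whole table, which is 4.56%, built from 23465 scored positions of 24084 on the chromosome. They run from 3 to 120.32 Mb of the mm10 build, and each window holds 10 positions spaced 5 kb apart.

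All samples were mouse embryonic stem cells, and the labels name no line or genotype and refer to an earlier publication for culture and treatment. The control group is labelled as control only, with no vehicle named, and the dTAG group was collected 2 days after treatment with dTAG, a compound that sends a protein carrying a matching tag to the proteasome. Cells were pulsed with the nucleotide analogue BrdU for 2 h and sorted by DNA content into an early and a late S-phase fraction. The 8 samples, a pair of fractions per profile, stand behind 4 profiles: control 1, control 2, dTAG 1 and dTAG 2. Nothing in the labels says that the profiles came from separate cultures, so a p-value here reflects only how these samples spread, which may be technical. For dTAG 1 the letters in the sample titles and the labelled fractions disagree on which sample is early. Over the chromosome 13 windows the dTAG 1 scores correlated with those of control 1 at r = 0.99, so in the deposited scores its direction is that of the other profiles. The depth behind each score is unknown.

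Replication timing is the order in which parts of the genome are copied in S phase. Gene-rich, active chromatin is usually copied early and gene-poor, compact chromatin late, in domains that often span many kilobases and that follow the folding of the chromosome. YY1 is a zinc finger protein found at promoters and enhancers, which it can hold together in loops. Each score is a signed number per position. The files do not state its direction or formula, and high scores were read as early because 98.8% of 80 ribosomal protein genes scored above 0. A window is called earlier here where the dTAG score lies above the control score of the same replicate number, and later where it lies below.

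The chromosome carries the large replication-dependent histone gene cluster, a cluster of type 1 vomeronasal receptor genes, prolactin and serpin gene families, arrays of zinc finger genes and many developmental regulators. The 200 bases before the start of 4 of its genes are shown because these genes mark the ends of the timing differences: Klf6 and Vps41 lie in the earlier and later regions that both replicate numbers share, and H2bc13 and Vmn1r207 had the highest mean difference of the histone and vomeronasal genes, H2bc13 together with H2ac13, H3c10, H2bc14 and H4c11 of the same window. Sequences and positions are RefSeq's on GRCm38.p6, the assembly behind mm10, and read 5′ to 3′ on the strand of the gene. Capitals mark each match to CCAAT or its reverse complement, the box bound by the factor NF-Y.
Klf6, chr13:5861289-5861488, plus strand: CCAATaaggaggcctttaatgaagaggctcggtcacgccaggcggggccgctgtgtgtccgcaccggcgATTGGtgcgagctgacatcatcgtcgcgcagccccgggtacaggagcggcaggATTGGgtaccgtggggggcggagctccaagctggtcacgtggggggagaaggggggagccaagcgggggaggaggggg
H2bc13, chr13:21716184-21716383, minus strand: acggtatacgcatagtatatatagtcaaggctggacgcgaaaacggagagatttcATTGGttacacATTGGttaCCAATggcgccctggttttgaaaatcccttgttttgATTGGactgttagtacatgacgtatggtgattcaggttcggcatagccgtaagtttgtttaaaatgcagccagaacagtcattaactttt
Vmn1r207, chr13:22726623-22726822, minus strand: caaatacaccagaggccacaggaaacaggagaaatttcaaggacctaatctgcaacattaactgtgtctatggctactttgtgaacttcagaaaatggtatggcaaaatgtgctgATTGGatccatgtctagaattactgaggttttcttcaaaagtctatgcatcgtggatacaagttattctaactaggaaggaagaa
Vps41, chr13:18717092-18717291, plus strand: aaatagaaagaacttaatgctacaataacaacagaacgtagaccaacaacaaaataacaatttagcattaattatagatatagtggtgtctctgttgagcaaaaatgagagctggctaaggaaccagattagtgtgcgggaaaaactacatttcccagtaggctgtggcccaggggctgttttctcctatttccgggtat

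CCAAT was found 3 times before Klf6, 4 times before H2bc13 and once before Vmn1r207, and was not in the stretch before Vps41. GC content was 68% before Klf6 and between 38.5% and 41% before the other 3 genes. A core of the YY1 motif, AANATGGC, and the TATA box, TATAAA, were searched on both strands as well, each match counted whether or not it overlapped another motif, and neither was found in the 4 stretches. Over the 725 promoters of chromosome 13 in the table, 2.34% held AANATGGC, against 2.88% of 17492 promoters of all chromosomes. The histone promoters stood out by CCAAT, which 43 of 51 held (84.3%), against 34.2% on the chromosome and 32.0% of all promoters. TATAAA was in 23 of these 51 (45.1%), against 10.1% of all promoters. AANATGGC was in 4 of the 51 (7.84%), against 2.88% of all promoters. Some histone genes lie so close that their upstream stretches can overlap, and a match on either strand then counts for both. The 51 may therefore not all be separate stretches of DNA. Of 33 vomeronasal promoters 7 held CCAAT (21.2%), 3 held TATAAA (9.09%) and 1 held AANATGGC (3.03%). These are matches of letters and say nothing of binding.

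The chromosome-wide level was asked first. The mean score over the 2346 windows was 0.457 in control 1, 0.473 in dTAG 1, -0.183 in control 2 and -0.0166 in dTAG 2. Both profiles of replicate number 2 lie lower, as they do over the whole genome: the deposited score distribution of number 2 is the mirror image of that of number 1, with means of -0.20 and 0.20 over all positions. Within replicate number 1 dTAG minus control averaged 0.0156, the eighth highest of 20 chromosomes, where the other 19 ran from -0.0568 on chromosome 18 to 0.0597 on chromosome 1. Within number 2 it averaged 0.166, the highest of the 20. The next highest was 0.0457 on chromosome 1, and the lowest was -0.102 on the X chromosome. Over both numbers the mean was 0.0910 ± 0.107 (SD, n = 2), so the spread between the replicate numbers is larger than the mean.

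**Figure D1:**
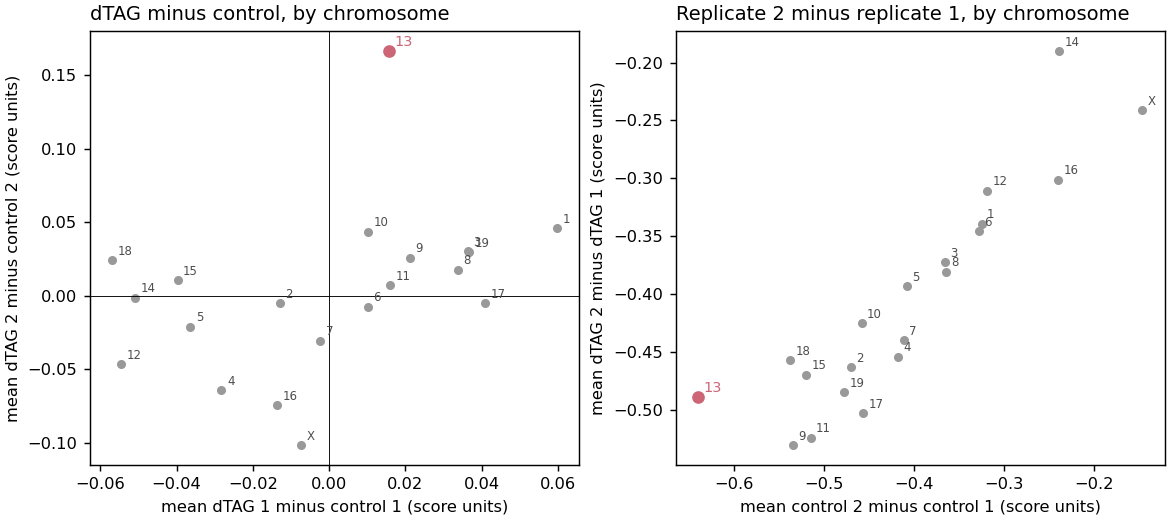
Mean differences per chromosome in score units, each point a chromosome (red: chromosome 13). Left, dTAG minus control in replicate 1 (x) and replicate 2 (y), where chromosome 13 sits at 0.0156 and 0.166; right, replicate 2 minus replicate 1 in the controls (x) and in the dTAG profiles (y), where it sits at -0.640 and -0.489.

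Set against the rest of its own profile, the chromosome stood 0.27 above all other windows in control 1, 0.29 above in dTAG 1, 0.017 above in control 2 and 0.19 above in dTAG 2. Control 2 was thus the lowest of the 4 on this scale, and dTAG 2 lay between it and the profiles of number 1. Control 2 minus control 1 was -0.640 on chromosome 13, below the -0.538 to -0.147 of the 19 other chromosomes. The same step between the dTAG profiles was -0.489, inside the -0.531 to -0.190 of the others. Because the score distributions of the numbers differ, the step of a chromosome can also depend on its make-up of early and late windows. These steps were not matched for that. In windows of other chromosomes control 2 was the lowest of the 4 profiles in 38.9%, and dTAG 2 in 40.1%. On chromosome 13, leaving out the widest domain described below, these shares were 53.7% and 32.6%. The part that a single profile plays in the offset was not tested beyond these values. When a profile is left out, the mean difference over both replicate numbers takes in the step between the numbers, which moves all chromosomes: it was 0.411 without control 1 and 0.336 without dTAG 2, but -0.154 without dTAG 1 and -0.229 without control 2. Beyond the mean of the other chromosomes, chromosome 13 was 0.0954 with all 4 profiles, 0.222 without control 1, 0.143 without dTAG 2, 0.0478 without dTAG 1 and -0.0312 without control 2. The last turns the sign. These values still take in the step of chromosome 13 between the numbers where it differs from that elsewhere. This step was -0.640 against -0.387 in the controls and -0.489 against -0.394 in the dTAG profiles. The turn of sign therefore cannot tell how dTAG and control differ without control 2.

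The distribution of window differences separates a shift of the whole chromosome from a few large regions. In replicate number 1 the middle of the distribution on chromosome 13 lay close to that elsewhere, with a median of 0.020 against 0.015 and quartiles of -0.16 and 0.20 against -0.18 and 0.20. In number 2 the median was 0.13 against -5.0e-05 on the other chromosomes, the lower quartile was -0.11 against -0.32 and the upper quartile was 0.40 against 0.30. The lower quartile therefore lay further from that of the other chromosomes than the upper one. The 95th percentile was 1.22 against 0.82, and the 5th was -0.63 against -0.83. In number 2, 1490 windows (63.5%) were above 0, more than the 44.1% to 55.2% of the other chromosomes. In number 1, 1248 were (53.2%).

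**Figure D2:**
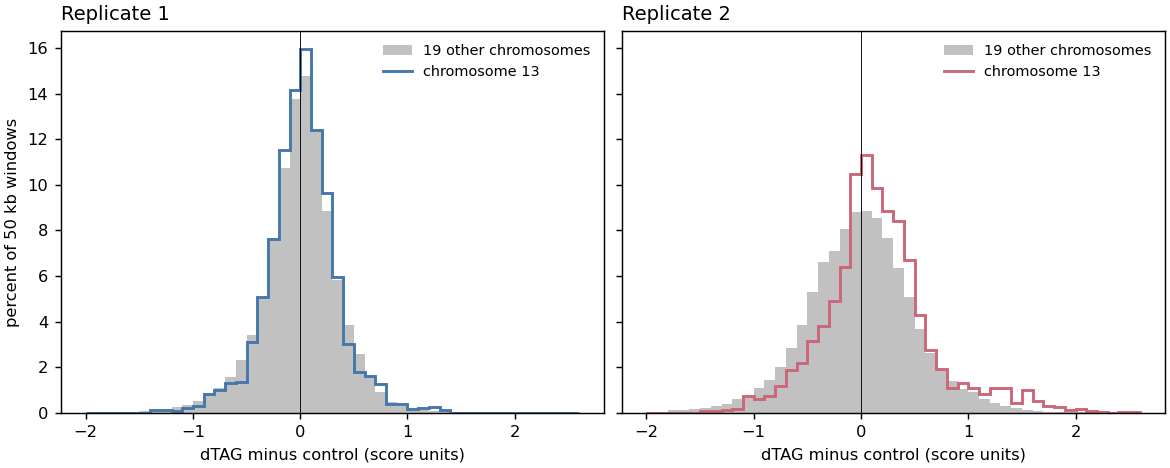
Share of 50 kb windows (percent, y) by dTAG minus control in score units (x, bins of 0.1), for chromosome 13 (outline) and the 19 other chromosomes (grey). The outline follows the grey area in replicate 1; in replicate 2 it lies to the right of it on both sides of the peak and has a tail above 1.

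Windows with a difference of at least 0.5 were counted in each direction. In replicate number 1, 146 windows of chromosome 13 (6.22%) were earlier, where all windows gave 6.34%, and 125 (5.33%) were later, where all windows gave 7.26%. In number 2, 432 windows (18.4%) were earlier, where all windows gave 13.7%, and 182 (7.76%) were later, where all windows gave 13.8%. The chromosome was chosen on this contrast, so nothing is read from the distance to the background. The share of later windows in number 2 was the lowest of the 20 chromosomes, whose other members gave 9.60% to 21.2%. In limma, fitted to all 51425 windows with group as the only term and Benjamini-Hochberg adjustment, dTAG minus control called 0 windows of chromosome 13 and 0% of all windows. At an unadjusted p under 0.05 there were 23 on chromosome 13 (0.98%) and 500 in all (0.972%). This model leaves the step between the replicate numbers in the residual spread, so its 0 calls do not show that no window differs. A limma model with the replicate block called 0 windows as well, with 290 on chromosome 13 (12.4%) and 6224 in all (12.1%) at an unadjusted p under 0.05. Adding a trended and robust variance to that block gave 66 called windows on the chromosome, 40 earlier and 26 later, which is 2.81% where all windows gave 2.84%.

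Along the chromosome the offset of replicate number 2 was broad but uneven. Of 25 segments of 5 Mb, the first and the last cut short by the ends, 20 had a mean above 0 in number 2 and 14 in number 1. The segment means of number 1 ran from -0.19 to 0.27, and those of number 2 from -0.18 to 0.91. The segment from 20 to 25 Mb scored 1.47 in control 1, 1.5 in dTAG 1, 0.57 in control 2 and 1.48 in dTAG 2. On the deposited scores control 2 alone was low there. However, dTAG 2 lay level with dTAG 1, where over the whole chromosome dTAG 2 minus dTAG 1 averaged -0.489. The difference of this segment in number 2, 0.91, made up 23.2% of the summed difference of the chromosome, beside 0.030 in number 1. Next came the centromere-proximal segment from 3 to 5 Mb, at 0.59 in number 2 and 0.27 in number 1, and the segment from 80 to 85 Mb, at 0.39 and 0.23. Both numbers were above 0 in 13 segments and below 0 in 4, among them 30 to 35 Mb (-0.07 and -0.15) and 55 to 60 Mb (-0.10 and -0.10). The gap between the numbers was widest from 20 to 25 Mb. All remaining segments, outside the 13 and the 4, had opposite signs in the numbers. Among them were 50 to 55 Mb, at -0.19 in number 1 and 0.29 in number 2, 85 to 90 Mb, at -0.17 and 0.32, and 15 to 20 Mb, at -0.18 and 0.12. Over the windows of the chromosome the differences of numbers 1 and 2, which share no profile, correlated at r = 0.40, the ninth highest of the 20 chromosomes. The others ran from 0.079 on chromosome 11 to 0.53 on chromosome 12. Neighbouring windows share reads through the authors' smoothing and are not independent.

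**Figure D3:**
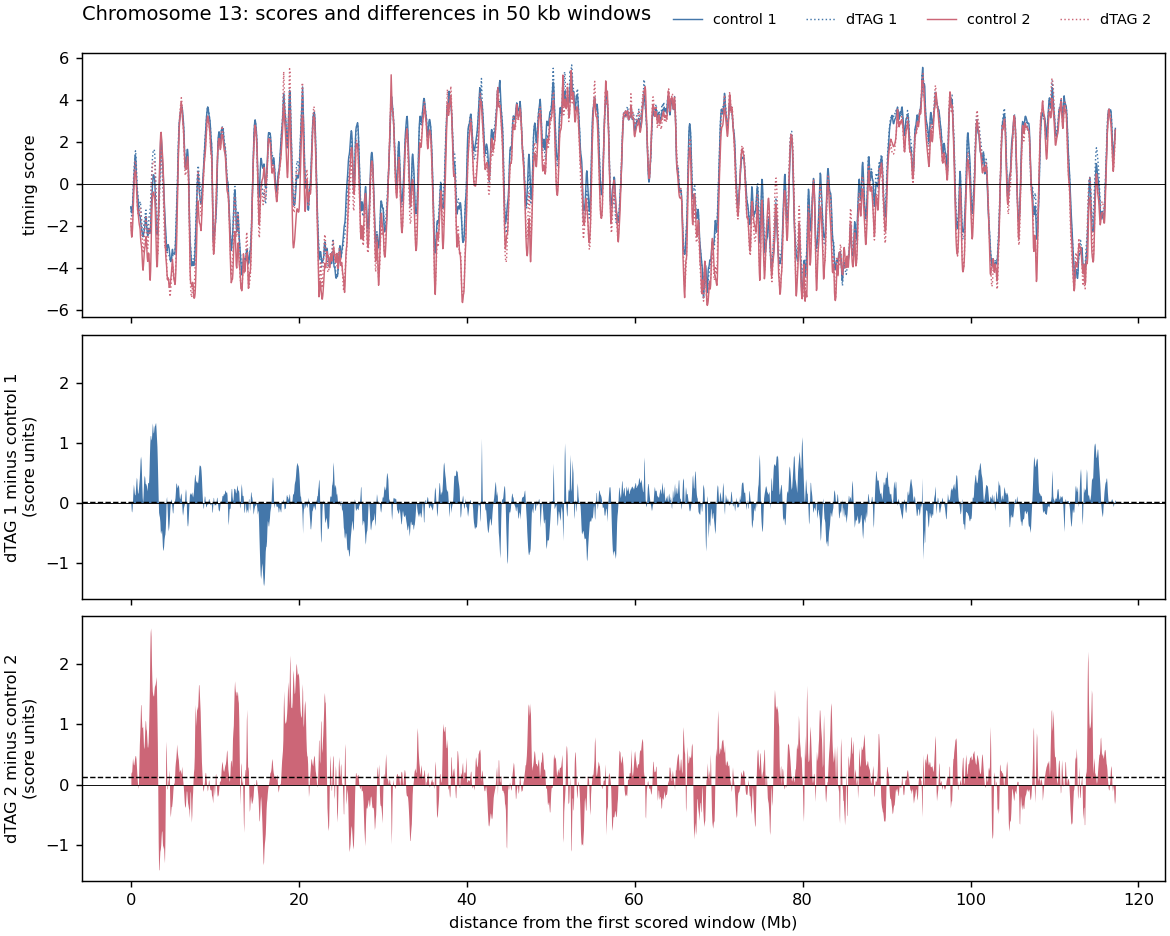
Chromosome 13 in 50 kb windows by distance from its first scored window (x, Mb). Top, timing scores of the 4 profiles; middle and bottom, dTAG minus control in score units for replicate 1 and replicate 2, with the median as a dashed line (0.020 and 0.13). The widest block above 0 in replicate 2 averages 1.42 and has no counterpart of that size in replicate 1.

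Local domains were defined as runs of windows that differ by at least 0.5 in one direction, joined across gaps of up to 100 kb and at least 200 kb long. Replicate number 1 had 13 earlier domains over 5.8 Mb and 12 later domains over 5.7 Mb. Number 2 had 31 earlier domains over 18.75 Mb and 21 later domains over 7.25 Mb. After the chromosome's own median was subtracted, the 52 domains of number 2 became 23 earlier and 32 later, so the excess of earlier over later domains turned round. In number 1 the same step left 12 and 12. The earlier domains of number 2 held 15.98% of the windows, where the other chromosomes gave 6.62% (chromosome 16) to 14.1%, and the later ones held 6.18%, where the others gave 6.77% to 17.5%. In number 1 these shares were 4.94% and 4.86%, inside the 2.21% to 8.74% and 3.02% to 8.85% of the others.

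The windows inside and outside the domains were then set side by side. In replicate number 2 the domains of both directions together held 22.2% of the windows and 68.5% of the summed difference. The 1826 windows outside them still averaged 0.067, with 61.1% above 0, where the 2116 windows outside the domains of number 1 averaged 0.016 with 53.5% above 0. The threshold that makes the domains is set on this same difference, and a raised level carries more windows over it, so this split is a description of the domains as defined. When all windows were placed in deciles of the mean score of the 4 profiles, chromosome 13 exceeded the rest of the genome in 10 of 10 deciles in number 2, by 0.069 to 0.34, and in 7 of 10 in number 1. The gap was widest in the third decile from the late end, where chromosome 13 averaged 0.32 and the other chromosomes -0.024. The chromosome is rich in middle timing: 67.0% of its windows fell in deciles 4 to 8, against 49.2% elsewhere.

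The earlier domains shared by both numbers covered 3.25 Mb, which is 56.0% of the windows of the earlier domains of number 1 and 17.3% of those of number 2. The shared later domains covered 2 Mb, 35.1% of number 1 and 27.6% of number 2. Windows in domains replicated later than the rest of the chromosome, with a mean over the 4 profiles of -0.61 inside against 0.27 outside in number 1 and of -0.72 against 0.44 in number 2. Protein-coding genes were sparse in the domains of number 1, at 3.83 per Mb against 7.40 outside. In number 2 they stood at 7.88 per Mb against 6.81, with 126 of the 205 genes inside in the widest domain. The slope of the profile was much the same inside and outside, with a median of 3.28 against 3.11 score units per Mb in number 1 and of 3.02 against 3.18 in number 2.

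The widest domain, chr13:21050001-23950000, spans 2900 kb and is the widest of the 629 earlier domains of replicate number 2 in the genome. Its 58 windows averaged 1.80 in control 1, 1.93 in dTAG 1, 0.50 in control 2 and 1.93 in dTAG 2. Control 2 was the lowest of the 4 profiles in 58 of 58 windows. A domain in which dTAG 2 exceeds control 2 favours this by its definition: control 2 was lowest in 86.9% of the windows in earlier domains of number 2 on other chromosomes and in 92.4% of those in the other such domains of chromosome 13. The other 3 profiles lay close together: dTAG 2 minus dTAG 1 was -0.00038 inside the domain, beside -0.50 over the rest of the chromosome and -0.39 on all other chromosomes. Control 2 minus control 1 was -1.30 inside, beside -0.62 and -0.39. Against the step between the numbers over the rest of the chromosome, control 2 was thus lower and dTAG 2 higher inside the domain. The difference in number 2 was 1.42, with every window between 0.56 and 2.15. In number 1 it was 0.12, with windows from -0.51 to 0.67, of which 38 lay above 0 and 7 at 0.5 or more. The domain holds 2.47% of the windows and 21.1% of the summed difference of number 2. Without it, an alternative added after the data had been seen, the chromosome averaged 0.135 in number 2 and 0.0128 in number 1, and the level against the rest of the profile was 0.24, 0.25, -0.00064 and 0.14 in control 1, dTAG 1, control 2 and dTAG 2.

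The difference of number 2 changed by degrees inside both edges of the domain. In windows that hold listed genes it was 0.57 at 21.07 Mb, 0.74 at 21.13 Mb, 1.07 at 21.35 Mb and 1.58 at 21.66 Mb. Toward the far edge it was 1.33 at 23.75 Mb, 0.77 at Slc17a1 and 0.56 at 23.93 Mb. The edges mark where smoothed scores cross the threshold of 0.5. In steps of 500 kb the difference of number 2 was 0.12 and 0.050 from 20 to 21 Mb, 1.01 from 21 to 21.5 Mb, and 1.56, 1.54, 1.83 and 1.4 over the next steps. It was 1.01 from 23.5 to 24 Mb and 0.18 and 0.38 up to 25 Mb. The step from 22.5 to 23 Mb was the one in which number 1 also reached 0.5, with scores of -0.07 in control 1, 0.48 in dTAG 1, -1.63 in control 2 and 0.19 in dTAG 2.

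**Figure D4:**
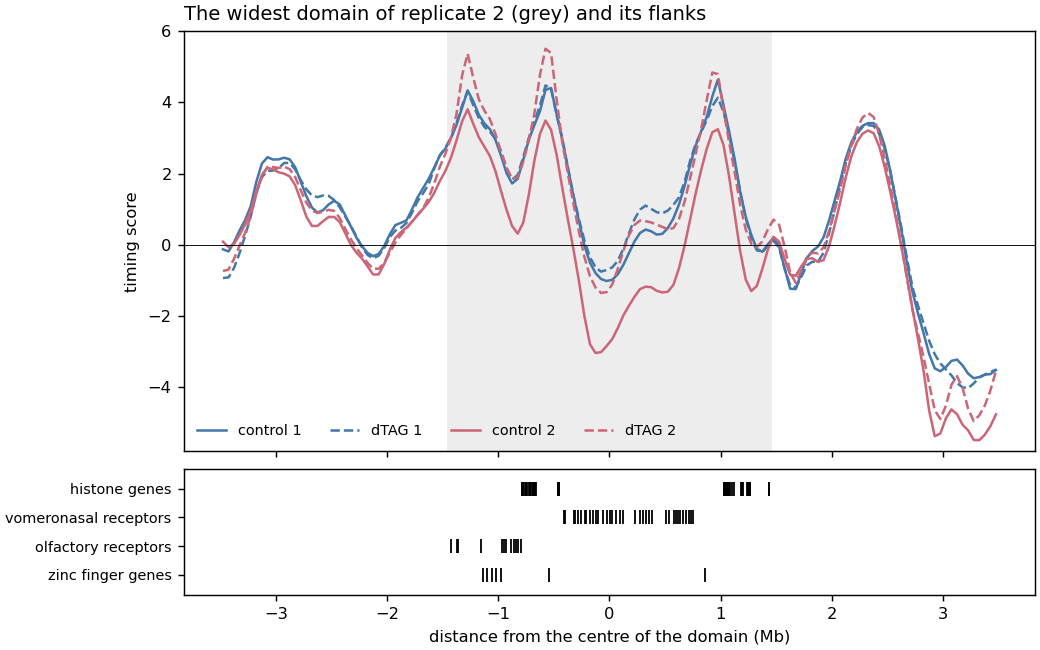
Timing scores of the 4 profiles (top, y) by distance from the centre of the widest domain (x, Mb; grey: the domain), with the midpoints of histone, vomeronasal receptor, olfactory receptor and zinc finger genes as ticks below. The control 2 line lies below the other 3 in all 58 windows of the domain and close to them in much of the flanks. Inside the domain dTAG 2 minus dTAG 1 averages -0.00038, beside -0.50 over the rest of the chromosome.

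This domain holds 126 protein-coding genes, which fall into 4 families in the main. The 54 replication-dependent histone genes, which supply the histones that package newly made DNA, all have their midpoint in it and share 11 windows. Their median score was 2.95 in control 1, 3.0 in dTAG 1, 1.41 in control 2 and 2.90 in dTAG 2. Their median difference was -0.029 in number 1 and 1.32 in number 2. Above 0 lay 22 (40.7%) and 54 (100%) of 54, where all genes of the chromosome gave 57.1% and 66.6%. Every window of the domain lay at 0.56 or more in number 2, so counts of genes inside it follow from their place there. At H2bc13, an H2B gene whose upstream bases are shown above, the scores were 2.39, 2.47, 0.63 and 2.34 in control 1, dTAG 1, control 2 and dTAG 2. At H2bc1, which with H2ac1 of the same window had the lowest mean difference, near the far edge, they were 0.020, -0.026, -0.12 and 0.44. Histone, vomeronasal, olfactory and zinc finger genes have near-identical copies, and how the authors treated reads that fit several copies is not given in the sources used here.

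Genes for type 1 vomeronasal receptors, which detect pheromones, lie between the histone blocks. All 36 with a score fell in the domain, in 21 windows. Their median score was 0.43 in control 1, 0.98 in dTAG 1, -1.19 in control 2 and 0.47 in dTAG 2. Their median difference was 0.20 in number 1 and 1.63 in number 2. Above 0 lay 35 (97.2%) and 36 (100%) of 36, where all genes of the chromosome gave 57.1% and 66.6%. At 0.5 or more lay 6 (16.7%) and 36 (100%), where all genes gave 5.8% and 22.9%. The counts of number 2 follow from their place in the domain, as for the histone genes. Vmn1r207 scored 0.097 in control 1, 0.72 in dTAG 1, -1.46 in control 2 and 0.56 in dTAG 2, and both its differences, 0.62 and 2.02, exceeded 0.5. Vmn1r221, Vmn1r222 and Vmn1r223, which share a window and had the lowest mean difference, gave 0.11 and 1.16. Of 13 olfactory receptor genes on the chromosome 12 lie in the domain. These 12 (92.3%) were at least 0.5 earlier in number 2, as is any gene placed in the domain. The median over all 13 was 1.19 in number 2 against 0.11 in number 1. Olfr1359 shares the window of H2bc13 and its values. Olfr466, outside the domain at 65.2 Mb, gave -0.014 and 0.39.

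Of 43 zinc finger genes, whose products often bind and silence repeated DNA, 7 lie in the domain. These 7 of the 43 (16.3%) were at least 0.5 earlier in number 2, where all genes of the chromosome gave 22.9%. Zfp184 had the greatest difference of any window of the domain, 2.15 in number 2 beside -0.011 in number 1, from scores of 4.41 in control 1, 4.39 in dTAG 1, 3.23 in control 2 and 5.39 in dTAG 2. Here dTAG 2 also stood above the profiles of number 1. Zfp640, at 66.7 Mb, gave 0.046 and -0.17. Over all 43 the medians were 0.11 and 0.19.

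Families outside the domain had lower medians in number 2, and in number 1 the order was mixed. The 26 prolactin family genes, hormones made mainly in the placenta, are late: their medians were -3.94 in control 1, -3.64 in dTAG 1, -3.31 in control 2 and -3.41 in dTAG 2. Their median differences were 0.11 and 0.081, from 0.57 on average at Prl3d2 to -0.25 at Prl8a9 and Prl8a1, which share a window. In number 1, 4 (15.4%), in 3 windows, were at least 0.5 earlier, where all genes of the chromosome gave 5.8%. The 16 serpin B genes, protease inhibitors, gave 0.12 and 0.057, with Serpinb9h highest (0.40 and 0.34) and Serpinb1c lowest (0.074 and -0.64). The 4 Naip genes, sensors of bacterial proteins, gave 0.049 and 0.13, between Naip6 (0.16 and 0.14) and Naip2 (-0.13 and 0.10). The 25 genes of at least 300 kb gave 0.074 and 0.097, and 5 (20%) were at least 0.5 earlier and 6 (24%) later in number 2, where all genes of the chromosome gave 22.9% and 6.41%. None of the 25 lies in the widest domain, and all genes outside that domain gave 8.99% and 7.56%. All 827 protein-coding genes of the chromosome with a score had medians of 0.043 and 0.15, and 66.6% lay above 0 in number 2. The 20694 genes of the other chromosomes had medians of 0.010 and -0.085, with 42.3% above 0 in number 2. For the 701 genes of chromosome 13 outside the widest domain the medians were 0.043 and 0.086, with 60.6% above 0 in number 2.

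After the histone region, the earlier domains of replicate number 2 with the highest means lay at Parp8 and Emb, at Gli3, from the Akr1c genes to Klf6, and in a stretch with no protein-coding gene. The domain chr13:4000001-6200000 averaged 0.72 in number 1 and 1.28 in number 2. Its centromere-proximal side holds the Akr1c genes, which encode aldo-keto reductases that act on steroids, and Akr1c14 scored -1.48 in control 1, -0.93 in dTAG 1, -2.02 in control 2 and -1.18 in dTAG 2. On that side, the stretch from 4.05 to 4.3 Mb was an earlier domain of number 1 as well, with differences of 0.66 and 1.13. The other side, also earlier in both numbers, holds Klf6, a zinc finger factor with roles in differentiation. Klf6 scored 0.066 in control 1, 1.36 in dTAG 1, -0.77 in control 2 and 0.88 in dTAG 2, and both dTAG profiles lay above both controls. Its differences, 1.29 and 1.65, gave the highest mean of the 31 developmental regulators. The domain around it in number 1, chr13:5200001-6200000, averaged 1.13 and 1.73 and had the highest mean of the earlier domains of that number.

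The domain chr13:15100001-15950000 holds Gli3, a transcription factor of the Hedgehog pathway. It averaged -1.6 in control 1, -1.41 in dTAG 1, -3.32 in control 2 and -2.0 in dTAG 2, so control 2 was again lowest, and the differences were 0.19 and 1.32. The domain chr13:116850001-117550000 with Parp8, a member of the PARP family, and Emb, which encodes the membrane glycoprotein embigin, had differences of 0.22 and 1.32. Parp8 went from -3.79 in control 2 to -2.04 in dTAG 2, beside -2.73 and -2.45 in number 1. The domain chr13:10600001-11400000, with no protein-coding gene, had 0.47 and 1.24. Among the 5 earlier domains of number 1 with the highest means were gene-free ones at 82.4 to 83.1 Mb (0.74 and 0.47), 81.85 to 82.1 Mb (0.70 and 0.11) and 79.5 to 80.15 Mb (0.68 and 1.24).

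Later domains were fewer than earlier ones in number 2 and overlapped those of number 1 at several genes. The domain chr13:18600001-19100000 of number 2 averaged 0.61 in control 1, -0.51 in dTAG 1, 0.36 in control 2 and -0.60 in dTAG 2, with differences of -1.11 and -0.97, and it overlaps a later domain of number 1. It holds Amph, which encodes the endocytic protein amphiphysin, and Vps41, which encodes a subunit of a complex that tethers vesicles to lysosomes. Vps41 scored 0.79 in control 1, -0.54 in dTAG 1, 0.36 in control 2 and -0.97 in dTAG 2, and both dTAG profiles lay below both controls. Its differences were equal to 2 decimals in both numbers, at -1.33. The strongest later domain of number 2, chr13:6250001-7100000, lies directly next to the earlier domain of Klf6 and holds Pfkp, a phosphofructokinase gene, and Pitrm1, a mitochondrial protease gene. It averaged 0.32 in control 1, -0.15 in dTAG 1, 0.52 in control 2 and -0.55 in dTAG 2, with differences of -0.47 and -1.07.

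Sox4, an HMG-box factor of progenitor cells, and Cdkal1, a tRNA-modifying enzyme gene, lie in chr13:28900001-29600000, with differences of -0.53 and -0.91. Sox4 scored 1.31 in control 1, 0.43 in dTAG 1, -0.16 in control 2 and -1.19 in dTAG 2. Its differences, -0.88 and -1.03, gave the lowest mean of the developmental regulators. Smad5, which transmits BMP signals, lies in chr13:56500001-56950000 with the channel gene Trpc7 and Tgfbi, an extracellular matrix gene, where the differences were -0.39 and -0.89. A gene-free domain from 47.65 to 47.85 Mb had -0.74 and -0.85. In number 1 the domain of Dapk1, a kinase gene linked to cell death, Ctsll3 and BC051665 at chr13:60300001-60850000 gave -0.80 and -0.55. The domain of Kif13a, a kinesin gene, Tpmt, a thiopurine methyltransferase gene, and Nhlrc1, a ubiquitin ligase gene, gave -0.72 in number 1 and 0.16 in number 2.

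Domains of opposite direction met at a single place, over 9 windows from 50.2 to 50.65 Mb with Fbxw17, Gm906 and Nutm2. The scores there were 0.55 in control 1, -0.21 in dTAG 1, -2.70 in control 2 and -1.49 in dTAG 2, and the differences -0.76 and 1.2. The step between the controls, from 0.55 to -2.70, was larger than either difference.

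Of 31 developmental regulators 11 lay above 0 in number 1 and 21 in number 2, with medians of -0.15 and 0.18. In number 1, 1 was at least 0.5 earlier and 2 at least 0.5 later, and in number 2 there were 5 (16.1%) and 2 (6.45%). Over all genes of the chromosome these shares were 5.8% and 3.02% in number 1 and 22.9% and 6.41% in number 2, and outside the widest domain 8.99% and 7.56% in number 2. The 5 were Klf6, Gli3, Tfap2a (0.23 and 0.62), Irx4 (0.091 and 0.57) and Mef2c (0.16 and 1.12), and the 2 were Sox4 and Smad5, both also the 2 of number 1. The opposite sign in the 2 numbers was seen at genes such as Irx2, a homeobox gene, with -0.45 and 0.42, and Msx2, with -0.089 and 0.42. The forkhead genes Foxq1, Foxf2 and Foxc1, neighbours near 31.6 to 31.8 Mb, lay below 0 in both, between -0.45 and -0.19. Of 19 DNA replication and repair genes 12 (63.2%) lay above 0 in each number, where all genes of the chromosome gave 57.1% and 66.6%, with medians of 0.080 and 0.15. Cenpk, a kinetochore gene, had the highest mean difference (0.59 and 0.22) and Ercc8, a nucleotide excision repair gene, the lowest (-0.068 and -0.27). In number 2, Ccnh (0.86), Ccno (0.63), Tert (0.56), the telomerase catalytic subunit gene, and Xrcc4 (0.56), of end joining, were at least 0.5 earlier, a share of 21.1%, at differences of -0.40, 0.038, 0.080 and -0.19 in number 1. Of 2 genes of the 2-cell-like state looked for, Tcstv1 had a score, with differences of 0.059 and -0.0084.

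**Figure D5:**
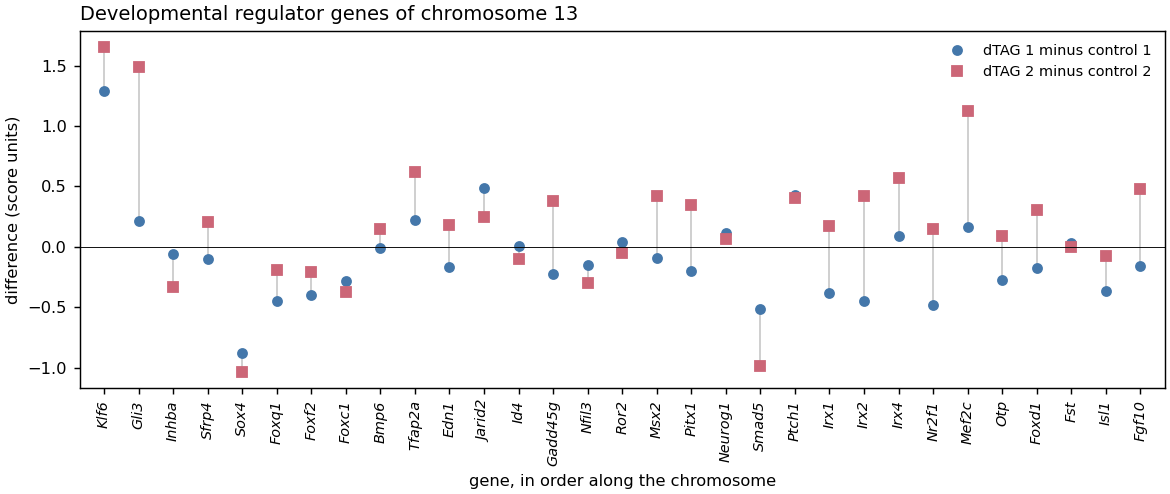
dTAG minus control in score units (y) for 31 developmental regulator genes in order along chromosome 13 (x), in replicate 1 (blue circles) and replicate 2 (red squares), joined per gene. Klf6 is highest and Sox4 low in both, Gli3 and Mef2c are high in replicate 2 alone, and red lies above 0 at 21 genes against 11 for blue.

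Where both dTAG profiles lay beyond both controls by at least 0.5, the replicate numbers can be read together. On chromosome 13, 20 windows (0.853%) lay above, where all windows gave 0.531%, and 20 windows (0.853%) lay below, where all windows gave 1.09%. After quantile normalization of the 4 profiles to a common distribution the split was 34 above (1.45%) and 14 below (0.597%), where all windows gave 0.819% and 1.48%. The rule is looser for 3 profiles than for 4, and it was met in either direction by 145 windows (6.18%) without dTAG 2, 150 (6.39%) without control 2, 221 (9.42%) without dTAG 1 and 414 (17.6%) without control 1. All windows gave 7.1%, 7.23%, 14.3% and 13.2% in the same order. The earlier windows formed 5 regions. The widest, 650 kb from 5.4 to 6.05 Mb with Klf6, scored -0.81 ± 0.66 in the controls and 0.66 ± 0.32 in the dTAG profiles (SD, n = 2). The others were 50 to 150 kb wide, 3 of them between 79.55 and 82.55 Mb with no protein-coding gene, and the last, also without one, from 112.7 to 112.75 Mb, at 4.22 ± 0.22 and 4.99 ± 0.087 (SD, n = 2). The later windows formed 5 regions too. From 18.7 to 19.1 Mb, at Amph and Vps41, the controls scored 0.47 ± 0.089 and the dTAG profiles -0.61 ± 0.011 (SD, n = 2). From 6.55 to 6.95 Mb, at Pfkp and Pitrm1, they scored 1.43 ± 0.16 and 0.64 ± 0.065 (SD, n = 2). The remaining regions lay at 54.45 Mb with Thoc3, a gene of mRNA export, and from 60.4 to 60.8 Mb, where BC051665 lies. None of the windows of the widest domain of number 2 was among these 40.

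The step between the replicate numbers was fitted too. It combines the same 4 profiles in another way, those that chose the chromosome among them, and its calls are given beside those over all windows. In limma, replicate 2 minus replicate 1 with Benjamini-Hochberg adjustment called 668 of 2346 windows of chromosome 13 lower (28.5%), where 24.7% of all windows were called lower, and 11 higher (0.469%), where 5.43% of all were called higher. After normalization to a common distribution, which removes the mirrored means, 195 windows of the chromosome were called lower and 45 higher, of 3321 lower and 3935 higher in all. On chromosome 13 lower calls outnumbered higher calls under both scalings, where over all windows the direction turned. Control 2 enters both this step and the difference that chose the chromosome, so nothing is read from that excess. Without control 1 or dTAG 1 the number called on the chromosome dropped from 679 to 223 and 195, and over all windows from 15507 to 5262 and 4909. Without control 2 or dTAG 2 it was 657 and 818, of 17145 and 15984.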

How the data were processed

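Early and late BrdU-labelled DNA of 40000 sorted cells per fraction was sequenced, per the labels' protocols. The submitters' processing notes name Bowtie2, SAMtools, bedtools and mm10, without versions. The authors deposited 1 signed score for every 5 kb position in each of 4 columns, and the name they gave the table states Loess smoothing and quantile normalization. Formula, log base and direction are not stated. The profiles without a number in the labels were taken as replicate 1.

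Scores were averaged in windows of 50 kb with at least 5 positions on 19 autosomes and X. The R package limma (3.58.1, R 4.3.3) tested dTAG minus control and replicate 2 minus replicate 1 (lmFit and eBayes, 2-sided, adjusted p under 0.05 after Benjamini-Hochberg). Other values are means, medians and counts made with pandas in Python. The domain finder and the limma fit were tested on simulated data. Genes took the score at their RefSeq midpoint, and 827 of 829 protein-coding genes of the chromosome had one. Promoter motifs were searched in the 200 bases before the start. Named genes were up to 3 of the longest protein-coding genes in each of the 5 highest and 5 lowest domains of each replicate number, the highest and lowest member of each list, and any developmental, DNA replication and repair or 2-cell-like list member. Not every gene this rule selects is reported here. Thoc3 lies outside the rule and was named after its values were seen. Long genes were taken by length in place of a neuronal list. The chromosome, gene lists, thresholds and tests were chosen with earlier results of these data known. Alternatives covered the model, the scaling, windows, thresholds, domain length and each profile left out. No genome sequence was used, so regions have no sequence or GC content here.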

Additional observations from a re-analysis of the deposited data

How the results depend on the processing

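The mean differences on chromosome 13 moved by less than the SD between replicate numbers, 0.107, under all alternatives other than leaving out a profile: 0.00068 to 0.0195 in number 1 and 0.0674 to 0.168 in number 2, lowest in number 2 without its local domains. That SD is set by the gap between the 2 means and exceeds the mean of number 1, so staying within it says little. In number 2 the fall without the domains was from 0.166 to 0.0674. Leaving out 1 profile in turn gave -0.229 to 0.411 over both numbers, and -0.0312 to 0.222 beyond the other chromosomes, both turning sign. Both ranges take in the step between the replicate numbers, so the turn is not a change within a number. For dTAG minus control, limma with the replicate block called 0 windows in all and 0 on chromosome 13, and with trended and robust variance as well 1462 and 66. Leaving out a profile gave 0 to 4 in all and 0 on chromosome 13 each time. Same-numbered profiles deviated together from their group means (correlation 0.765 over all windows and 0.695 on chromosome 13). The deposited score distribution differs between the numbers in both groups alike, which by itself adds to this correlation. With 2 numbers and no label of a shared day or culture the pairing is not known. For replicate 2 minus replicate 1, one distribution called 7256 windows of 15507 and 240 of 679 on chromosome 13, and leaving out a profile 4909 to 17145 and 195 to 818. The 25 and 52 domains became 68 and 92 at a threshold of 0.25, 2 and 17 at 1, 49 and 110 at 50 kb or longer, and 10 and 19 at 500 kb or longer. The 40 shifted windows became 125 at 0.25 and 2 at 1, and 145 to 414 with a profile left out, where fewer profiles have to agree. The cause of the other changes was not tested. Depth is unknown, and 2 profiles per group limit the precision.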
